A study of Saccharomyces cerevisiae with 56 samples.

Results

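The DNA captured at a double-strand break (DSB) was compared between *rad27*Δ and *rtt105*Δ cells of budding yeast by the place in the genome it came from. The members were all donors, the stretches of DNA found inserted at the break, in the single-donor and complex-insertion lists of either genotype. Donors of the mating cassettes *HML*, *MAT* and *HMR* on chromosome III were left out (14 in *rad27*Δ and 24 in *rtt105*Δ). This left 353 donors in *rad27*Δ and 600 in *rtt105*Δ, together 953 of the 1618 donors in the lists used from the series. They belonged to 328 insertions in *rad27*Δ and 560 in *rtt105*Δ.

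The *rad27*Δ strain carried *rad27*::*klTRP1* and the *rtt105*Δ strain *rtt105*::*hphMX*, each strain a derivative of JKM139. Both shared *MAT***a**, deletion of *HO* and of both silent cassettes (*hmr*::*ADE1* and *hml*::*ADE1*), *ura3-52*, *trp1*::*hisG*, *lys5*, *leu2-3*,*112*, *ade1* and a galactose-inducible HO endonuclease (*ade3*::*GAL10*::*HO*), which cuts once at *MAT***a**. Survivors of the cut were pooled and the repaired junction was sequenced as an amplicon, a method called *Break-Ins*. There were 14 *rad27*Δ libraries, 3 labelled 23C, 8 labelled 30C and 3 labelled 37C, and 8 *rtt105*Δ libraries, all labelled 30C. The labels give 820032 colonies for *rad27*Δ and 374304 for *rtt105*Δ. The lists pool the libraries of a genotype and hold no read counts, so no spread between libraries could be given. Intervals are exact (Clopper-Pearson) 95% intervals. Like the p-values they cover counting error among donors only, since the libraries are pooled and the donor was the unit. The amplicons carried no molecular identifiers.

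Rad27 is the yeast flap endonuclease (FEN1), which removes the 5′ flaps formed when lagging-strand synthesis displaces the preceding Okazaki fragment. It is known for keeping telomeric and other repeated DNA stable. Rtt105 is a chaperone of RPA, the single-strand DNA binding complex, and carries it into the nucleus and promotes its loading on DNA. Loss of Rtt105 is known to raise the mobility of Ty1, a retrotransposon copied through RNA into cDNA.

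In *rad27*Δ most captured DNA came from ordinary nuclear sequence, whereas in *rtt105*Δ a large part came from Ty elements, ribosomal DNA (rDNA) and mitochondrial DNA. Nuclear donors outside Ty, rDNA and cassettes made up 312 of 353 donors in *rad27*Δ (88.4%, 84.6 to 91.5) and 282 of 600 in *rtt105*Δ (47.0%, 42.9 to 51.1). Ty elements gave 18 donors in *rad27*Δ (5.10%) and 205 in *rtt105*Δ (34.2%). The rDNA repeats of chromosome XII accounted for 16 donors of *rad27*Δ (4.53%) and 63 in *rtt105*Δ (10.5%). Each of these shares differed between the genotypes (Fisher's exact test, two-sided, with p adjusted over the classes, 6.52e-40 for nuclear, 4.62e-28 for Ty and 0.00122 for rDNA). With loci within 500 bp counted once, which joins the rDNA repeats into few loci, rDNA made up 6 loci in *rad27*Δ and 3 in *rtt105*Δ, the opposite order, and did not pass (adjusted p = 0.398). Counted this way, the nuclear share was 91.8% of 293 loci in *rad27*Δ and 77.0% of 330 in *rtt105*Δ. The Ty share was then 4.10% in *rad27*Δ and 12.1% in *rtt105*Δ. These smaller differences passed (Fisher's exact test, adjusted p = 1.73e-06 for nuclear and 0.000422 for Ty). Mitochondrial DNA gave 3 donors in *rad27*Δ and 42 in *rtt105*Δ (Fisher's exact test, adjusted p = 6.71e-06). A sequence listed as mp, whose identity is not given in the sources used here, gave 4 donors in *rad27*Δ and 8 in *rtt105*Δ, shares that did not differ beyond counting error (Fisher's exact test, adjusted p = 1.00).

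**Figure D1:**
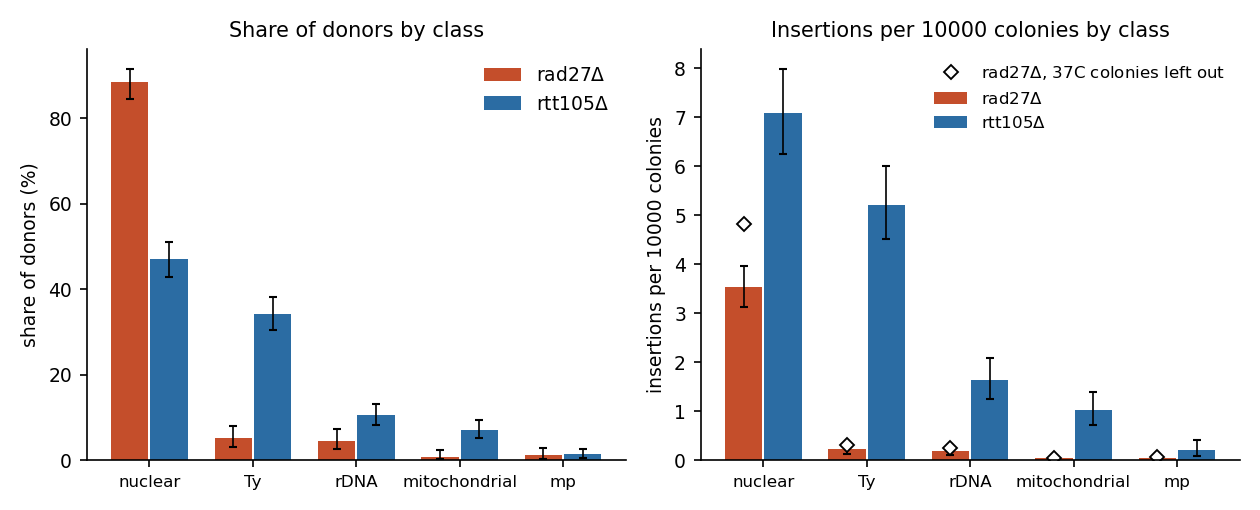
Share of donors in each class (left, percent of 353 *rad27*Δ and 600 *rtt105*Δ donors) and insertions with at least 1 donor of that class per 10000 colonies (right); bars are pooled values and error bars exact 95% intervals, and the open diamonds give *rad27*Δ without the colonies of the 37C libraries. Nuclear donors led the *rad27*Δ bars at 88.4%, and the nuclear and Ty bars of *rtt105*Δ stood at 47.0% and 34.2%.

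A larger nuclear share did not mean more nuclear insertions per colony. Over colonies, *rad27*Δ had 4.00 insertions per 10000 (3.58 to 4.46) and *rtt105*Δ had 14.96 (13.7 to 16.3), a difference that passed Fisher's exact test (two-sided, p = 6.40e-84). Colonies were not corrected for HO cutting here, whereas the study's own rates use colony numbers normalized for it. The *rad27*Δ denominator here holds all libraries of the labels, whereas the study's own colony total for *rad27*Δ equals that of the labels without the libraries of the highest temperature. The study's counts of Ty and rDNA donors over that total equal those here, 18 and 16, and its other nuclear count is close. If the lists hold no insertions of the 37C libraries, the *rad27*Δ rates over all colonies are too low. Over the 600672 colonies left without the 3 libraries labelled 37C, with all 328 insertions kept, *rad27*Δ had 5.46 insertions per 10000 (4.89 to 6.08). This was still below *rtt105*Δ (Fisher's exact test, p = 1.03e-49). In this and all later rates without the 37C libraries only the colonies were taken out, and no insertion was. Insertions with a nuclear donor occurred at 3.52 per 10000 colonies in *rad27*Δ (4.81 without the 37C libraries) and at 7.08 in *rtt105*Δ. Insertions with a Ty donor occurred at 0.220 per 10000 in *rad27*Δ (0.2997 without the 37C libraries) and at 5.21 in *rtt105*Δ. The rDNA value was 0.183 per 10000 in *rad27*Δ and 1.63 in *rtt105*Δ, and the mitochondrial value 0.0366 in *rad27*Δ and 1.02 in *rtt105*Δ. In proportion, the genotypes thus lay closer together for nuclear insertions than for those of Ty, rDNA or mitochondrial DNA. Without the 37C libraries the rDNA value of *rad27*Δ was 0.2497 and the mitochondrial value 0.0499. The lists do not mark the library of an insertion. Temperature and genotype cannot be told apart for the *rad27*Δ libraries grown off 30C.

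Most insertions of either genotype were read in different sequencing runs, so the genotype and the run overlap. The *rad27*Δ insertions came from 3 runs and the *rtt105*Δ insertions from 2, with a single run in common. That run held 18 insertions of *rad27*Δ and 40 of *rtt105*Δ. Within it, nuclear donors were 16 of 20 in *rad27*Δ and 25 of 46 in *rtt105*Δ, and Ty donors were 1 of 20 in *rad27*Δ and 13 of 46 in *rtt105*Δ, the same order as in all runs. Neither difference passed there (Fisher's exact test, adjusted p = 0.145 for each). Mitochondrial donors did not keep their order, with 2 in *rad27*Δ and 0 in *rtt105*Δ in the shared run. All 42 mitochondrial donors of *rtt105*Δ came from its other run.

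Nuclear donors came from all 16 chromosomes in both genotypes, and a difference between them in the spread over chromosomes depended on how donors were counted. A permutation test of the counts over the 16 chromosomes gave p = 0.0105 with all donors. It gave p = 0.1698 with loci within 500 bp counted once, 0.248 with single donors alone, 0.114 in the shared run, and 0.497 and 0.221 without the main run of *rad27*Δ and of *rtt105*Δ, none of which passed. Tested one by one, 1 of 16 chromosomes (6.25%) passed Fisher's exact test at an adjusted p under 0.05. This was chromosome VII, with 15 of 312 nuclear donors in *rad27*Δ (4.81%, 2.72 to 7.81) and 37 of 282 in *rtt105*Δ (13.1%, 9.41 to 17.6; adjusted p = 0.00653). Chromosome VII holds 9.04% of the nuclear bases, a share that lay above the *rad27*Δ interval and below the *rtt105*Δ interval. The 37 *rtt105*Δ donors lay at 35 loci and the 15 *rad27*Δ donors at 15 loci, where a locus joins donors of a genotype within 500 bp, and no locus there held more than 1 insertion. Without the donors within 20 kb of chromosome ends, chromosome VII had 15 of 259 in *rad27*Δ and 35 of 262 in *rtt105*Δ and no longer passed (Fisher's exact test, adjusted p = 0.0695). It did not pass either without the run that held most *rad27*Δ insertions (4 of 71 in *rad27*Δ and 37 of 282 in *rtt105*Δ, adjusted p = 0.775) or without the main run of *rtt105*Δ (15 of 312 in *rad27*Δ and 2 of 25 in *rtt105*Δ, adjusted p = 0.763).

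Chromosome I was the other chromosome with an unadjusted p under 0.05, and it did not pass after adjustment. It gave 3 nuclear donors in *rad27*Δ and 13 in *rtt105*Δ (Fisher's exact test, adjusted p = 0.0723). Chromosome XIV had 25 donors in *rad27*Δ and 12 in *rtt105*Δ (adjusted p = 0.336), and chromosome XII had 39 in *rad27*Δ and 26 in *rtt105*Δ (adjusted p = 0.630). By length, the density ranged between 13.2 donors per Mb on chromosome I and 44.5 on chromosome VI in *rad27*Δ. In *rtt105*Δ it was lowest on chromosome XI and reached 57.3 per Mb on chromosome I. Next in density came chromosome VIII in *rad27*Δ (42.7 per Mb) and chromosome III in *rtt105*Δ (47.4 per Mb).

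**Figure D2:**
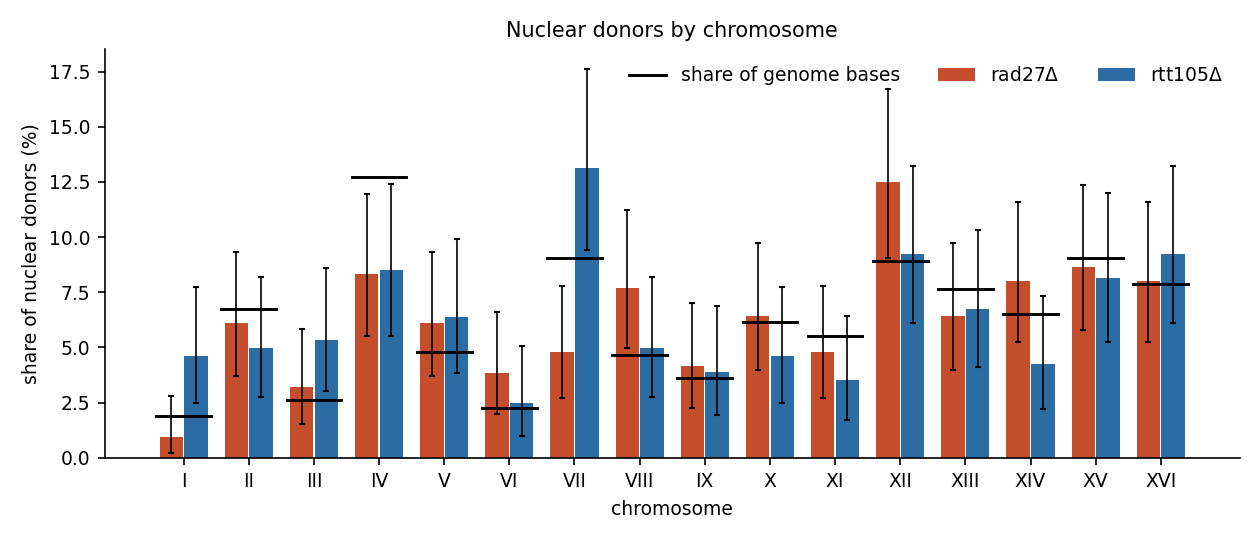
Share of nuclear donors on each chromosome (percent of 312 donors in *rad27*Δ and 282 in *rtt105*Δ), with exact 95% intervals as error bars and the chromosome's share of the nuclear bases as a black line. Chromosome VII, at 4.81% in *rad27*Δ and 13.1% in *rtt105*Δ, was the chromosome that passed the test after adjustment.

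Chromosome ends gave a larger share of nuclear donors in *rad27*Δ. Yeast chromosomes end in telomeric repeats, preceded by subtelomeric X and Y′ elements that are nearly identical on many chromosomes, so a donor there may be assigned to one of several like copies. Within 20 kb of an end lay 53 of 312 nuclear donors in *rad27*Δ (17.0%, 12.99 to 21.6) and 20 of 282 in *rtt105*Δ (7.09%, 4.39 to 10.7), where these stretches make up 5.31% of the bases (two-sided Fisher's exact test, adjusted p = 0.000754). Within 5 kb lay 20 donors in *rad27*Δ and 4 in *rtt105*Δ (adjusted p = 0.00404). Within 1 kb, 0.265% of the bases, lay 11 donors in *rad27*Δ and 1 in *rtt105*Δ (adjusted p = 0.00659). The *rad27*Δ donors within 20 kb touched 22 of the 32 chromosome ends and the *rtt105*Δ donors 15.

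Repeated capture of the same loci contributed to these counts, and a complex insertion entered them with each of its nuclear donors. With single donors alone, 41 of 265 in *rad27*Δ and 18 of 241 in *rtt105*Δ lay within 20 kb (Fisher's exact test, adjusted p = 0.0163). With each locus counted once, joined over all donor classes, 32 of 269 in *rad27*Δ and 18 of 254 in *rtt105*Δ lay within 20 kb of an end. The shares were 11.9% in *rad27*Δ and 7.09% in *rtt105*Δ, and the difference no longer passed (Fisher's exact test, adjusted p = 0.0740). The shares within 1 kb and within 5 kb did not pass either (adjusted p = 0.0705 for each). In the shared run, 4 of 16 donors in *rad27*Δ and 1 of 25 in *rtt105*Δ lay within 20 kb (adjusted p = 0.146). With all *rad27*Δ runs against the 25 *rtt105*Δ donors of that run the adjusted p was 0.451. Over colonies, insertions from within 20 kb of an end occurred at 0.585 per 10000 in *rad27*Δ (0.432 to 0.776) and at 0.508 in *rtt105*Δ (0.306 to 0.793), with overlapping intervals. Without the colonies of the 37C libraries the *rad27*Δ value was 0.799 (0.589 to 1.06), whose interval also overlapped that of *rtt105*Δ.

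The 11 *rad27*Δ donors within 1 kb of an end lay on 7 chromosomes. At left ends, where position 1 is the end, they were III:64-103, III:134-252, IV:24-69, IV:119-293, X:51-335 and XII:60-241 on R64. At right ends, taken as the last annotated or donor position, they were III:316525-316566, IX:438431-438503, XIV:783998-784072, XIV:784128-784202 and XV:1090822-1091288. The donors on IX, XIV and XV themselves set the right end of their chromosome, so distances there are lower bounds. With left ends alone, 6 donors of *rad27*Δ and 0 of *rtt105*Δ remained (Fisher's exact test, p = 0.0317). The only *rtt105*Δ donor within 1 kb, III:316550-316580, overlapped a *rad27*Δ donor at the same end.

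Donors of *rad27*Δ were shorter than those of *rtt105*Δ inside genes, between genes and in rDNA. Among single donors, the median nuclear length was 63 bp in *rad27*Δ (quartiles 51 and 73, n = 265) and 144 bp in *rtt105*Δ (99 and 232, n = 241; permutation test of medians, two-sided, adjusted p = 2e-05). Donors of at most 100 bp were 88.7% of the nuclear donors in *rad27*Δ and 26.6% in *rtt105*Δ. Inside protein-coding genes the medians were 61 bp in *rad27*Δ and 159.5 bp in *rtt105*Δ, and between genes 65.5 bp in *rad27*Δ and 120 bp in *rtt105*Δ (permutation test, adjusted p = 2e-05 for both). Over all nuclear donors the ranges between the quartiles did not overlap. Between genes they did, with 53.25 to 95.75 bp in *rad27*Δ and 91.25 to 186.5 bp in *rtt105*Δ. Within the shared run the nuclear medians were 71.5 bp in *rad27*Δ (n = 12) and 189 bp in *rtt105*Δ (n = 18), which did not pass at this number (permutation test, adjusted p = 0.205).

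Repeated sequence showed the same order with fewer *rad27*Δ donors. In rDNA the median was 49 bp in *rad27*Δ (n = 13) and 137 bp in *rtt105*Δ (n = 59; permutation test, adjusted p = 0.0249). This difference did not pass with donors of at least 40 bp (adjusted p = 0.0851) or with loci counted once (adjusted p = 0.195). In Ty elements it was 105 bp in *rad27*Δ (quartiles 80 and 289.5, n = 18) and 172 bp in *rtt105*Δ (113 and 266, n = 177), a difference that did not pass (permutation test, adjusted p = 0.0640). The Ty class was thus where *rad27*Δ donors spread most widely between their quartiles. The 4 mp donors of *rad27*Δ were 47 to 49 bp long, and the 8 of *rtt105*Δ were 49 to 271 bp. The 3 mitochondrial donors of *rad27*Δ were 61, 134 and 242 bp, inside the range of the 35 in *rtt105*Δ, 41 to 245 bp.

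**Figure D3:**
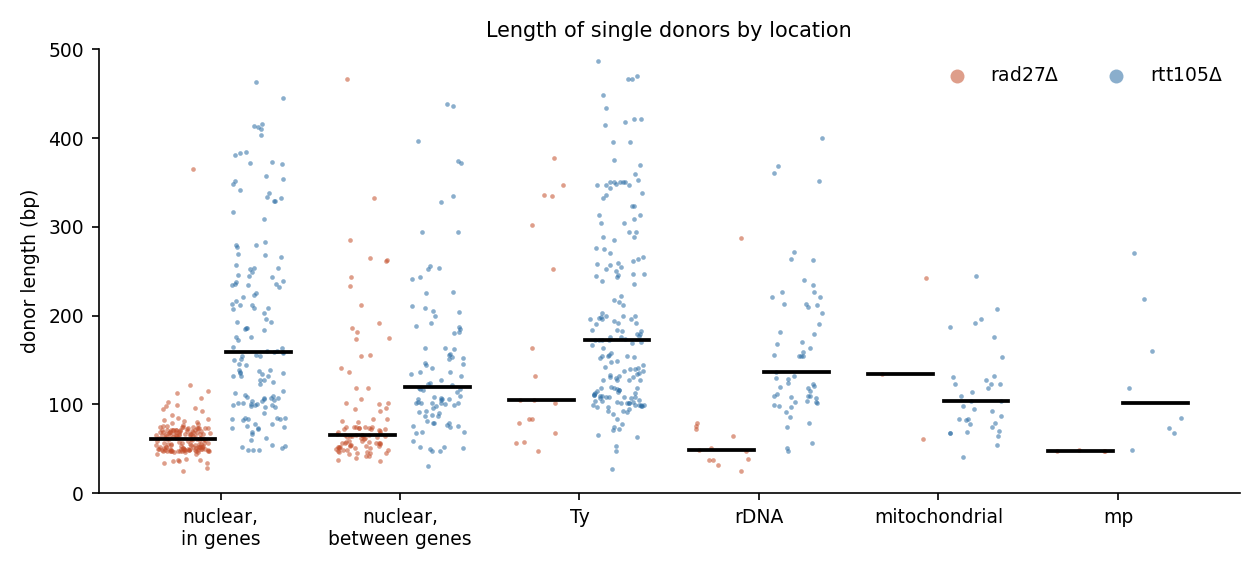
Length in bp of each single donor by location, 1 point per donor, with *rad27*Δ left of *rtt105*Δ and the median as a black line. Points of *rad27*Δ inside genes cluster around 61 bp and those of *rtt105*Δ spread around 159.5 bp.

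Near chromosome ends the donors of *rad27*Δ were longer than elsewhere and about as long as those of *rtt105*Δ. Single nuclear donors within 20 kb of an end had a median of 115 bp in *rad27*Δ (quartiles 73 and 212, n = 41) and 105.5 bp in *rtt105*Δ (81.75 and 159.25, n = 18), and these did not differ beyond their spread (permutation test, adjusted p = 0.812). Without the run with most *rad27*Δ insertions the *rad27*Δ median was 199 bp (n = 10), which passed (permutation test, adjusted p = 0.0485), and with donors of complex insertions added the medians were 84 bp in *rad27*Δ and 111 bp in *rtt105*Δ (adjusted p = 0.248). Farther than 20 kb from an end the medians were 61 bp in *rad27*Δ (50.75 and 70, n = 224) and 147 bp in *rtt105*Δ (100.5 and 234.5, n = 223; permutation test, adjusted p = 1e-05). This interior difference was also present without the run with most *rad27*Δ insertions, with 61 bp in *rad27*Δ (n = 39) and 147 bp in *rtt105*Δ (adjusted p = 0.000420), and without the main run of *rtt105*Δ, with 61 bp in *rad27*Δ and 151 bp in *rtt105*Δ (n = 17, adjusted p = 1e-05). Within *rad27*Δ, donors near ends were longer than the rest by 54 bp at the median (permutation test, adjusted p = 2e-05). Within *rtt105*Δ they were shorter by 41.5 bp at the median, which did not pass (adjusted p = 0.162). The difference between the genotypes in this end effect was 1.27 on the log2 scale of length (permutation of residuals, two-sided, p = 1e-05, the smallest that 100000 resamples can give). These end contrasts were added after the lengths had been seen. The longer donors near ends were not seen in *rad27*Δ alone. In the 2 other genotypes with a deletion of *RAD27*, *rtt105*Δ *rad27*Δ and *rad27*Δ *RFA1-t33*, the median was 126 bp near ends (n = 53) and 71 bp elsewhere (n = 266). In the 10 genotypes with neither gene deleted it was 68 bp near ends (n = 7) and 144 bp elsewhere (n = 61). Over all 14 other genotypes it was 119 bp near ends (n = 61) and 78 bp elsewhere (n = 335), and none of these was tested.

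Of the 30 single nuclear donors over 100 bp in *rad27*Δ, 22 lay within 20 kb of an end, although only 41 of all 265 did. By distance, the *rad27*Δ median was 119 bp within 1 kb of an end (n = 9), 233 bp at 1 to 5 kb (n = 7), 100 bp at 5 to 20 kb (n = 25) and 55.5 bp at 20 to 40 kb (n = 10). At 20 to 40 kb the 10 *rad27*Δ donors were at most 74 bp long, whereas the 12 *rtt105*Δ donors there had a median of 130 bp. The longer donors of *rad27*Δ near ends lay mostly between genes, where the median was 130 bp (n = 32), with 93.5 bp inside genes (n = 8). In the shared run the 4 *rad27*Δ donors near an end had a median of 190.5 bp and the 8 others 66 bp. In the run with most *rad27*Δ insertions these medians were 92 bp (n = 31) and 61 bp (n = 185).

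**Figure D4:**
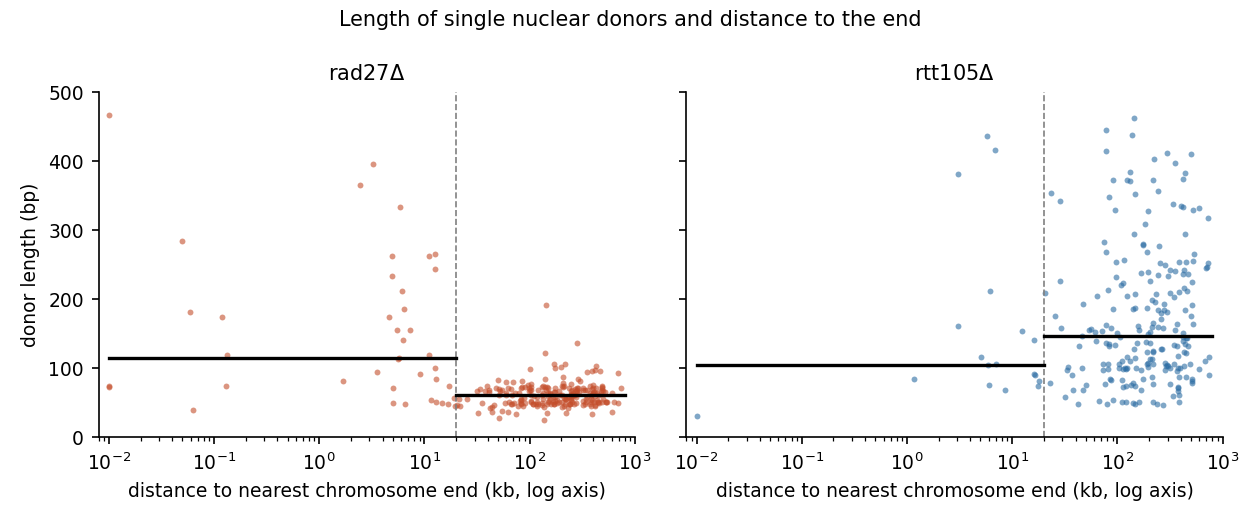
Length in bp of each single nuclear donor against its distance to the nearest chromosome end in kb on a log axis, for *rad27*Δ (left, n = 265) and *rtt105*Δ (right, n = 241). The dashed line marks 20 kb, black lines are the medians on either side of it (115 and 61 bp in *rad27*Δ, 105.5 and 147 bp in *rtt105*Δ), and donors less than 10 bp from an end are drawn at 10 bp.

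The interior of the chromosomes gave *rad27*Δ almost no long donors. Only 8 of 224 single donors beyond 20 kb exceeded 100 bp in *rad27*Δ (3.57%), the longest 192 bp, against 167 of 223 in *rtt105*Δ. Over colonies, interior donors of at most 100 bp occurred at 2.63 per 10000 in *rad27*Δ (2.29 to 3.01) and at 1.496 in *rtt105*Δ (1.13 to 1.94). Interior donors over 100 bp occurred at 0.0976 per 10000 in *rad27*Δ and at 4.46 in *rtt105*Δ. Without the colonies of the 37C libraries the *rad27*Δ values were 3.596 (3.13 to 4.11) for the shorter and 0.133 (0.0575 to 0.262) for the longer. With either denominator the intervals did not overlap for either length class, and the short interior donors had the higher rate in *rad27*Δ. The longest of the 8, V:434630-434821, lay 18 bp from the tRNA gene YNCE0021C, and V:170684-170790 lay in *SEC3*, which encodes a subunit of the exocyst.

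The share of nuclear donors in protein-coding genes did not differ detectably between the genotypes. The midpoint lay in such a gene for 189 of 312 donors in *rad27*Δ (60.6%, 54.9 to 66.0) and for 171 of 282 in *rtt105*Δ (60.6%, 54.7 to 66.4), while these genes cover 70.9% of the bases (Fisher's exact test between genotypes, two-sided, p = 1.00). With donors within 20 kb of ends left out the shares were 69.1% in *rad27*Δ and 62.6% in *rtt105*Δ (p = 0.139, Fisher's exact test). The hits were spread over 173 genes in *rad27*Δ and 160 in *rtt105*Δ. The median relative position, with 0 at the start of the gene and 1 at its end, was 0.488 in *rad27*Δ and 0.523 in *rtt105*Δ (permutation test of medians, two-sided, p = 0.475). The part of the gene before 0.333 held 38.1% of the donors in *rad27*Δ and 33.9% in *rtt105*Δ, and the part after 0.667 held 33.3% in *rad27*Δ and 38.6% in *rtt105*Δ. Donors between 0.2 and 0.3 were 28 in *rad27*Δ and 7 in *rtt105*Δ, a stretch picked out after the values had been seen and not tested.

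In both genotypes donors in genes were more often on the strand that reads as the transcript. Among single donors in genes, the listed strand matched the coding strand for 103 of 164 in *rad27*Δ (62.8%, 54.9 to 70.2) and for 91 of 144 in *rtt105*Δ (63.2%, 54.8 to 71.1). Both intervals lay above 50%, the share with no preference, and the genotypes differed by 0.390 percentage points (Fisher's exact test, p = 1.00). By the strand of the gene, the share in *rad27*Δ was 64.6% for plus-strand genes (53.3 to 74.9) and 61.0% for minus-strand genes (49.6 to 71.6), the second an interval that includes 50%. In *rtt105*Δ it was 62.4% for plus-strand genes (51.2 to 72.6) and 64.4% for minus-strand genes (50.9 to 76.4). Beyond 20 kb of the ends it was 63.5% in *rad27*Δ and 63.3% in *rtt105*Δ. The shared run had 3 of 4 donors on the sense strand in *rad27*Δ and 6 of 9 in *rtt105*Δ. In the lists of the 14 other genotypes it was 141 of 237 (59.5%, 52.9 to 65.8). How the listed strand relates to the direction of the *MAT***a** amplicon is not given in the sources used here.

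**Figure D5:**
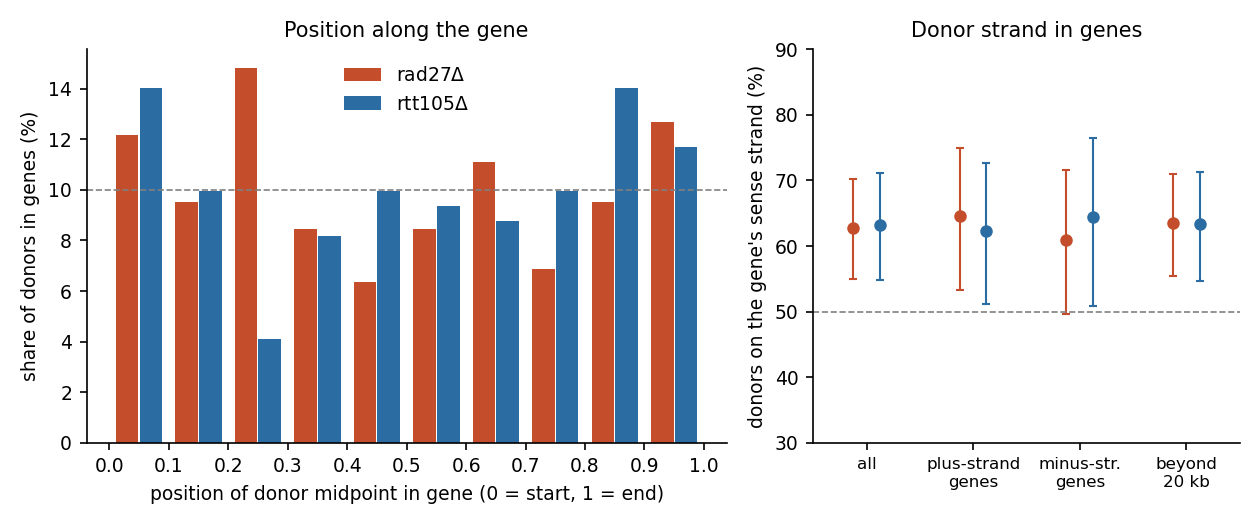
Left, share of donors in genes (percent of 189 in *rad27*Δ and 171 in *rtt105*Δ) by position of the donor midpoint along the gene, with a dashed line at an even spread. Right, percent of single donors on the sense strand of the gene with exact 95% intervals, for all genes, for genes of either strand and beyond 20 kb of the ends; the dashed line is 50%, and all points lie above 60%.

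Donors between genes did not differ detectably in the kind of intergenic space, apart from the stretch beyond the last gene of a chromosome arm. Between divergent genes, whose promoters share the space, lay 40 of 120 intergenic donors in *rad27*Δ and 35 of 107 in *rtt105*Δ. Between convergent genes lay 12 in *rad27*Δ and 15 in *rtt105*Δ, and between genes in tandem 57 in *rad27*Δ and 56 in *rtt105*Δ. Beyond the last gene lay 11 in *rad27*Δ and 1 in *rtt105*Δ (Fisher's exact test, adjusted p = 0.0240), which restates the difference at the ends. For the other kinds the adjusted p was 0.676 or higher (Fisher's exact test), and the nuclear genome itself has 35.1% of its intergenic bases between divergent genes, close to the 33.3% in *rad27*Δ and 32.7% in *rtt105*Δ.

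Transfer RNA genes are transcribed by RNA polymerase III and known as sites of slowed replication and Ty integration. A larger share of *rtt105*Δ donors lay near them at each window, and with all donors the difference passed at the widest window only. Within 5 kb of 1 of the 275 nuclear tRNA genes lay 60 of 312 donors in *rad27*Δ (19.2%, 15.01 to 24.0) and 84 of 282 in *rtt105*Δ (29.8%, 24.5 to 35.5; Fisher's exact test, adjusted p = 0.00889). These windows cover 19.5% of the bases. The 53 *rad27*Δ donors within 20 kb of a chromosome end all lay farther than 5 kb from a tRNA gene. This difference is therefore not independent of that at the ends, and it was not computed with the donors near ends left out. Without the run with most *rad27*Δ insertions the shares were 23.9% of 71 donors in *rad27*Δ and 29.8% in *rtt105*Δ, and the difference no longer passed (adjusted p = 0.668). Within 1 kb lay 21 in *rad27*Δ (6.73%) and 32 in *rtt105*Δ (11.3%), where 4.56% of the bases lie (adjusted p = 0.0907). Within 0.2 kb lay 7 in *rad27*Δ (2.24%) and 12 in *rtt105*Δ (4.26%), where 1.08% of the bases lie (adjusted p = 0.242). The 5 kb window overlaps the margins set around Ty elements, many of which sit beside tRNA genes, and donors within these margins were counted as Ty. Any Ty sequence farther than 400 bp from a Ty reading frame stayed in the nuclear class. Its part in these shares was not tested.

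Donors that overlapped a tRNA gene numbered 2 in *rad27*Δ and 5 in *rtt105*Δ. In *rad27*Δ they overlapped YNCK0007W (XI:202963-203006, 44 bp) and YNCL0044W (XII:797161-797231, 71 bp). In *rtt105*Δ they overlapped *SUF2*, *HSX1*, YNCD0008W, YNCM0023C and YNCO0011W and were 103 to 204 bp long. Near tRNA genes, too, *rad27*Δ donors were short, with a median within 1 kb of 65.5 bp in *rad27*Δ (n = 20) and 151 bp in *rtt105*Δ (n = 29).

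Some loci were captured repeatedly in both genotypes. Loci with at least 2 insertions numbered 16 of 269 in *rad27*Δ and 7 of 257 in *rtt105*Δ, which did not pass (Fisher's exact test, two-sided, p = 0.0880, a test added after the counts had been seen). Of these, 10 of the 16 in *rad27*Δ lay within 20 kb of an end, against 1 of the 7 in *rtt105*Δ. Loci seen in more than 1 run were 13 of the 16 in *rad27*Δ, which had 3 runs, and 2 of the 7 in *rtt105*Δ, which had 2. Outside the main run lay 71 of 312 nuclear donors in *rad27*Δ and 25 of 282 in *rtt105*Δ. The genotypes thus did not have the same chance to show a locus in more than 1 run. On chromosome VIII 6 *rad27*Δ insertions fell between 556837 and 557155, in the space between *IMD2*, which encodes an IMP dehydrogenase, and YHR218W. Their donors were 28, 263, 233, 46, 72 and 50 bp long and all 6 were on the minus strand. A further 6 *rad27*Δ insertions fell on chromosome XII between 1064990 and 1065361, at 595 to 911 bp from YLR462W, again all on the minus strand and 52 to 265 bp long. On chromosome VI, 3 *rad27*Δ insertions fell between 4580 and 4822 near YFL064C, all on the plus strand.

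Far from any end, 5 *rad27*Δ insertions fell on chromosome II between 353592 and 353686, at the 3′ edge of *UBP14*, which encodes a ubiquitin-specific protease. Their donors were 56 to 95 bp long, 3 on the plus and 2 on the minus strand, and came from 2 runs. In *rtt105*Δ the locus with most insertions was on chromosome III between 123374 and 124726, around *SUF2*, a tRNA gene. It held 4 donors of 101, 117, 204 and 372 bp, 2 on each strand, all from 1 run. Of the 4 donors at *SUF2*, III:124065-124165 and III:124135-124506 overlapped, and the others did not.

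Some loci of each genotype lay close to a locus of the other. The share that evenly spread loci would give was not worked out, so the counts cannot be called low or high. Of the loci, 19 of 269 in *rad27*Δ (7.06%) and 19 of 257 in *rtt105*Δ (7.39%) lay within 500 bp of a locus of the other genotype, and no donor had the same start, end and strand in both. The *IMD2* locus on chromosome VIII held 6 *rad27*Δ insertions and 1 *rtt105*Δ insertion, and a second stretch beside it held 1 in *rad27*Δ and 2 in *rtt105*Δ. At YJR115W on chromosome X there were 2 insertions in *rad27*Δ and 1 in *rtt105*Δ. Donors overlapped directly in *FLO1*, a flocculin gene with internal repeats, with 47 bp in *rad27*Δ (I:206260-206306) and 209 bp in *rtt105*Δ (I:206253-206461). They also overlapped in *REC114*, a gene of meiotic break formation, with XIII:536863-536918 in *rad27*Δ and XIII:536850-536911 in *rtt105*Δ.

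Lists of genes that are subtelomeric, repetitive or strongly transcribed held at most 6 donors each in either genotype, counts too small to compare and not tested, and some of these shares lay above the part of the nuclear bases that the list covers. Families of the subtelomeres and of sugar transport (*PAU*, *COS*, *SEO*, *FLO* and *HXT*, 58 genes, 0.601% of the bases) held 4 donors in *rad27*Δ (1.28% of nuclear donors) and 6 in *rtt105*Δ (2.13%). Cell wall genes with internal repeats (25 genes, 0.447% of the bases) held 3 in *rad27*Δ (0.962%) and 6 in *rtt105*Δ (2.13%), among them *SED1* and *FLO5* in *rad27*Δ and *FLO9*, *FLO11* and *TIR4* in *rtt105*Δ. Because *FLO1*, *FLO5*, *FLO9* and *FLO11* belong to both of these lists, their donors were counted in each. Highly transcribed genes (154 genes, 1.10% of the bases) held 3 in *rad27*Δ (0.962%), in *RPL19A*, *SSA2* and *SSB2*, and 4 in *rtt105*Δ (1.42%), in *CDC19*, *RPL17B*, *RPL4B* and *RPS1B*. All 3 of *rad27*Δ were on the sense strand, and 3 of the 4 in *rtt105*Δ were antisense. The 8 histone genes, 0.0252% of the bases, held 2 donors in *rad27*Δ (0.641%), in the neighbouring *HHT2* and *HHF2* (histones H3 and H4) on chromosome XIV, and 0 in *rtt105*Δ. The 8 Y′ helicase genes, 0.353% of the bases, held 1 donor in *rad27*Δ (0.321%), in *YRF1-7*, and 0 in *rtt105*Δ, and the 76 snoRNA genes, 0.114% of the bases, held 0 in *rad27*Δ and 1 in *rtt105*Δ (0.355%), in *SNR86*. No donor came from the 8 galactose genes in either genotype, nor from *RAD27* or *RTT105*, so the deleted genes give no check of the labels here.

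Complex insertions, with more than 1 donor, did not differ detectably in share but differed in structure. They were 25 of 328 insertions in *rad27*Δ (7.62%) and 40 of 560 in *rtt105*Δ (7.14%; Fisher's exact test, p = 0.791). Without the run that held most *rad27*Δ insertions the share in *rad27*Δ was 11 of 70 (15.7%) and the difference passed (Fisher's exact test, p = 0.0197). Nuclear donors of complex insertions had a median of 42 bp in *rad27*Δ (n = 47) and 115 bp in *rtt105*Δ (n = 41). Pairs from the same locus on opposite strands, within 1 kb, were found in 15 of 23 complex insertions with at least 2 nuclear donors in *rad27*Δ and in 14 of 17 in *rtt105*Δ. The pair overlapped in all 15 cases in *rad27*Δ, by a median of 30 bp, and in 5 of 14 in *rtt105*Δ, by a median of 3 bp (Fisher's exact test, two-sided, p = 0.000200). The other 9 pairs of *rtt105*Δ lay apart by a median of 11 bp. Of the *rad27*Δ pairs, 2 lay within 20 kb of an end, and none of the *rtt105*Δ pairs did.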

How the data were processed

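The authors removed PhiX and low-quality reads with BBDuk, merged read pairs with PEAR, found insertions longer than 10 bp with BLASTN, removed duplicate reads and assigned donors. The deposited lists give positions, per the file headers a chromosome, start, end and strand for each donor on R64, with 1 representative read and no count. The read name gave the sequencing run. Of 30 deposited files, 26 lists were used, each a pool of libraries of 1 genotype.

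Starts were read as 0-based and printed with 1 added. Donors were classed with RefSeq genes of R64, allowing 500 bp beside rDNA, 400 bp beside any of 91 Ty reading frames and 700 bp beside the mating cassettes. Gene strand was taken from the systematic name. Right chromosome ends were the last annotated or donor position (from a donor on 5 of 16 chromosomes), left ends position 1. A donor was placed in a gene by its midpoint. Lengths came from single donors.

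Shares were compared by Fisher's exact test, medians by permutation with 100000 resamples, all two-sided, with Benjamini-Hochberg adjustment within a family of results (threshold 0.05). The unit was the donor, so the p-values do not measure the spread between cultures. Scripts were tested on simulated data. Members, gene lists and tests were chosen with earlier results of these data known. Loci are named where a genotype had at least 3 insertions within 500 bp (at most 10), where both genotypes had donors (at most 15 considered), or where a gene of a list held a donor (at most 25). Named outside this rule are *REC114*, *SEC3* and tRNA genes that donors overlapped. Alternatives were the shared run alone, donors within 5 bp or loci within 500 bp counted once, single donors alone or complex donors added, donors of at least 40 bp, ends left out, other margins, colonies without the 37C libraries, left ends alone and any overlap with a gene. Leaving out either main run, the end contrasts of length, the test of repeated loci and the rates by class without the 37C libraries were added once values had been seen. Base composition and simple repeats were not analysed here, since no genome sequence was used. Software was SciPy 1.17.1, NumPy 2.4.6, pandas 2.3.3 and Python 3.11.15.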

Additional observations from a re-analysis of the deposited data

Results flagged for a closer look

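The effect of chromosome ends on donor length differed between the genotypes by a test of the difference itself. Single nuclear donors within 20 kb of an end had a median of 115 bp in *rad27*Δ and 105.5 bp in *rtt105*Δ, while those farther away had 61 bp in *rad27*Δ and 147 bp in *rtt105*Δ. The end effect on mean log2 length was 1.27 higher in *rad27*Δ than in *rtt105*Δ (permutation of residuals, two-sided, p = 1e-05, the smallest that 100000 resamples can give). Over the alternatives that could be fitted it ranged between 0.87 and 1.86, with p of 2e-05 or lower. The contrast was chosen after the lengths had been seen, and the shared run alone held too few *rtt105*Δ donors near ends, 1 donor, to test it.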

How the results depend on the processing

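Of 178 values under alternative settings, 134 kept their direction and their side of the threshold, and differences below are *rad27*Δ minus *rtt105*Δ. The shared run held too few donors for most tests: there the class shares differed by 25.7 percentage points for nuclear, -23.3 for Ty, -12.4 for rDNA and 10.0 for mitochondrial DNA, the shares within 1, 5 and 20 kb of ends by 12.5, 12.5 and 21.0 points, the share within 5 kb of a tRNA gene by -8.75 points, and the median lengths by -117.5 bp (nuclear), -85.0 bp (beyond 20 kb of ends), -187.5 bp (in genes) and -35.0 bp (between genes), none past the threshold. In that run the relative position differed by 0.0119, the sense-strand share by 8.33 points, the complex share by -3.89 points, and 0 chromosomes passed. With loci counted once, the shares within 1, 5 and 20 kb of ends differed by 2.58, 3.26 and 4.81 points, the rDNA share by 1.14 points, the share in genes by 2.50 points and the rDNA length by -93.5 bp, and none passed. Single donors alone gave 2.14 points for the share in genes, complex donors added gave -27.0 bp within 20 kb of ends, and donors of at least 40 bp gave -69.0 bp in rDNA. With loci counted once and with single donors alone, 1 chromosome passed but the test of the spread over chromosomes did not (permutation test, p = 0.1698 and 0.248). With ends left out, 0 chromosomes passed, and the share in genes and the sense share differed by 6.52 and 0.152 points. Without the run with most *rad27*Δ insertions, mitochondrial DNA (-4.53 points) and the share within 5 kb of a tRNA gene (-5.84 points) did not pass, 0 chromosomes passed, and the length within 20 kb of ends (93.5 bp) and the complex share (8.57 points) passed. Without the run with most *rtt105*Δ insertions, which leaves 46 of its donors, mitochondrial DNA differed by 0.850 points, the share in genes by 4.58, the relative position by 0.0713, the shares within 1, 5 and 20 kb of ends by 3.53, 6.41 and 12.99 points and the complex share by -7.38 points, none past the threshold, 0 chromosomes passed, and the share within 0.2 kb of a tRNA gene (-9.76 points) passed. Several of these settings leave fewer donors, and the causes of the changes were not tested.

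No paired analysis was possible because the lists pool the libraries and their donors carry no replicate number, and for the same reason leaving out a replicate was not possible. Base composition and simple repeats were not run, since no genome sequence was used. Near-identical subtelomeric, Ty and rDNA copies make the exact copy of such donors uncertain. Distances to right ends are lower bounds.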
